A study of Mus musculus with 12 samples.

Results

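T cells of miR-214-/- mice, which carry a global deletion of the miR-214 gene, were compared after 14 days of angiotensin II (Ang II) and after sham infusion. The comparison used 6 of the 12 RNA libraries in the data, 3 from sham mice and 3 from Ang II mice, each made from 1 mouse. All 15937 genes that passed a filter on low counts were tested, of 49315 in the table. The mice were 12-week-old males on a mixed S129 and C57 background that received Ang II at 490 ng/kg per day or the vehicle alone from an osmotic minipump. Their splenic T cells were taken by magnetic removal of the other cells, so all T cell subsets were measured together and every cell of the mouse lacked miR-214. The other 6 libraries came from WT mice given the same infusions and are used here only beside the miR-214-/- values. The study asked how miR-214 alters the T cell profile in hypertension caused by Ang II.

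MicroRNAs guide the silencing machinery to messenger RNAs that pair with a short stretch near their 5′ end, the seed, and they lower the level or the translation of those messages. Ang II, the peptide hormone of the renin-angiotensin system, raises blood pressure, and mice that lack T cells respond to it with a blunted rise and less vascular injury. In T cells, antigen receptor and stress signals switch on immediate early genes within minutes, NF-kB drives inflammatory genes, and resting cells keep a separate set of genes that hold them quiescent.

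The deleted gene gives both arms of the miR-214 hairpin. They are shown because their seeds, in capitals, define which messages the missing miRNA could pair with, and the sequences are those of RefSeq on GRCm38.p6. The 5p arm lies at chr1:162223397-162223418 and the 3p arm at chr1:162223438-162223459, both on the plus strand.
mmu-miR-214-5p: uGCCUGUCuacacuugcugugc
mmu-miR-214-3p: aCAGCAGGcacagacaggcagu
The poly(A)-selected libraries do not capture the mature miRNA and so give no check of the deletion. Mir214 and its neighbour Mir199a-2 had 0 counts in all 12 libraries, and Dnm3os, the noncoding transcript that holds both hairpins, had 1 count in all 12 libraries together and 0 in the 6 miR-214-/- libraries. A count of 0 allows up to 3 counts. Dnm3, which encodes a dynamin and has the miR-214 hairpin on the opposite strand of an intron, had 7 to 25 counts per miR-214-/- library and a log2 fold change of -0.43 after Ang II, with a 95% interval of -1.45 to 0.60.

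The 6 libraries held between 21126874 and 29605988 counts. The 18 genes of the T cell identity list were all detected and together gave 6863 to 7954 CPM (counts per unit of library size after TMM scaling) in the sham libraries and 5896 to 7732 CPM in the Ang II libraries. Genes of other blood cells were present too. The summed level of 39 red-cell membrane and factor genes was 845, 1946 and 1695 CPM in sham 1, 2 and 3 and 3007, 1862 and 967 CPM in Ang II 1, 2 and 3. The 24 B cell genes gave 1039, 5288 and 4421 CPM in the sham libraries and 6256, 3153 and 1258 CPM in the Ang II libraries. Both sums were lowest in sham 1 and Ang II 3, so their spread lay within the groups. Averaged over genes as log2 CPM, the B cell list was instead highest in Ang II 2, at 5.74, against 3.31 to 4.24 in the other libraries. The first principal component of 9755 expressed genes held 48.1% of the variance and set sham 1, Ang II 2 and Ang II 3 apart from sham 2, sham 3 and Ang II 1. The second held 27.2% and did not overlap between the groups. Ang II 2 also stood apart with 5013 CPM of globin and haem synthesis genes, against 683 to 1435 CPM in the other libraries. Its neutrophil genes were at 3679 CPM, against 240 to 1079 CPM. In these bulk samples, fewer cells of a type and less RNA per cell cannot be told apart.

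**Figure D1:**
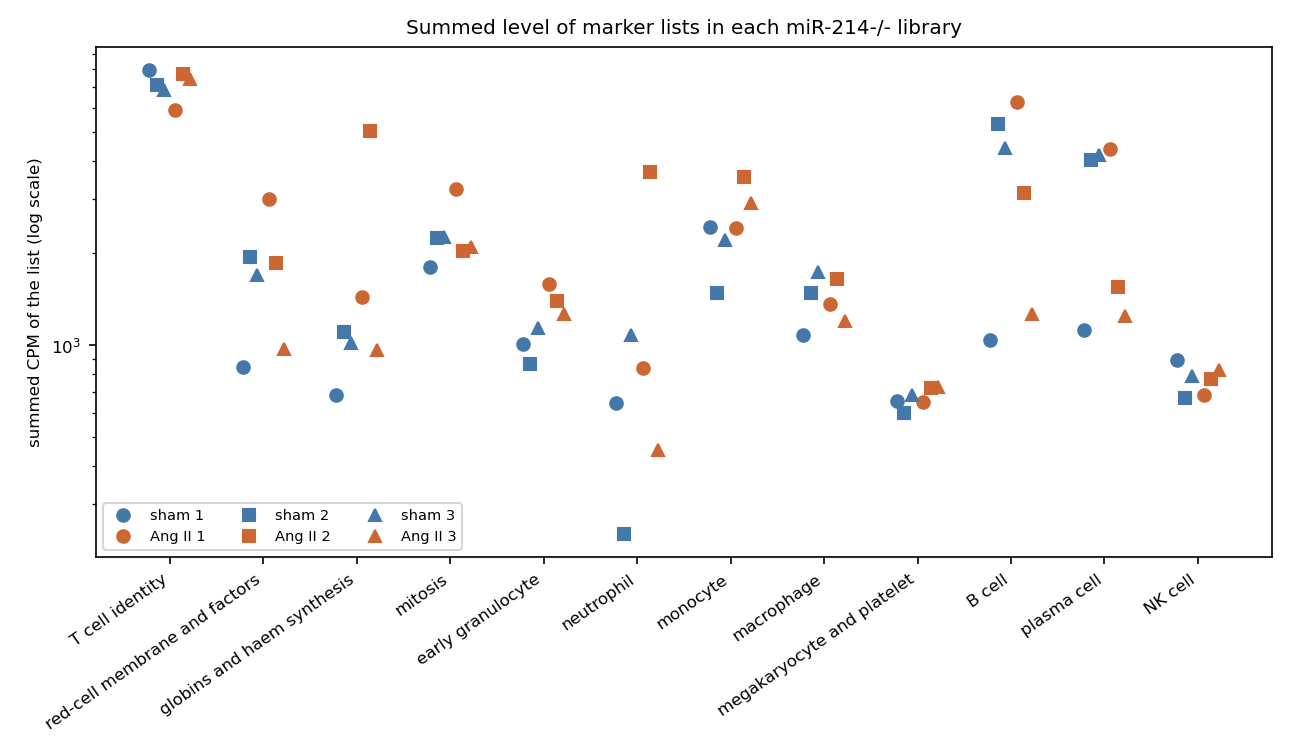
Summed level (CPM, log axis) of 12 marker lists in each miR-214-/- library, with sham in blue and Ang II in orange and the symbol giving the replicate number. T cell identity genes lie between 5896 and 7954 CPM in every library, while the red-cell, B cell and neutrophil lists spread widely within each group and overlap between the groups.

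No gene differed between Ang II and sham in miR-214-/- T cells by edgeR's quasi-likelihood test at a Benjamini-Hochberg adjusted p under 0.05 and a log2 fold change above 1 in size, and the smallest adjusted p was 0.149. At an unadjusted edgeR p under 0.05 there were 1939 genes (12.2% of those tested), 928 higher (5.82%) and 1011 lower (6.34%) after Ang II. DESeq2, the study's tool, called 51 of 13034 genes (0.391%) with the same thresholds, 28 higher (0.215%) and 23 lower (0.176%). Its adjusted p alone was under 0.05 for 277 genes (2.13%), 104 higher (0.798%) and 173 lower (1.33%). The sizes were mostly small: the median absolute log2 fold change was 0.18, the median SE 0.17, and 95% of genes lay between -0.68 and 0.86. The 95% interval of the difference stayed within a 2-fold change either way for 11553 genes (72.5%), so for the rest these libraries could not exclude a difference of that size.

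The same test in WT mice found 1878 genes higher and 1131 lower at an adjusted p under 0.05 (11.7% and 7.06% of 16012 genes). A log2 fold change above 1 in size was measured for 1887 genes in WT, 1687 of them higher, and for 381 genes in miR-214-/-, of which 276 were higher. Over the 15622 genes tested in both genotypes, the log2 fold changes correlated with Pearson's r = 0.40 and Spearman's rho = 0.42, a description over genes that are not independent of each other. The difference between genotypes was tested gene by gene as the interaction of infusion and genotype over all 12 libraries. It passed for 1 of 16770 genes (0.00596%) in edgeR, and 2483 genes (14.8%) had an unadjusted edgeR p under 0.05, 1098 with a difference above 0 (6.55%) and 1385 below it (8.26%). DESeq2's interaction test passed for 444 of 13771 genes (3.22%). Frmd4a, which encodes a scaffold protein of epithelial polarity, was the gene that passed in edgeR. It lies at chr2:4017717-4614043. Its level was 24.98, 28.3 and 26.8 CPM in the sham libraries and 26.3, 24.8 and 21.2 CPM in the Ang II libraries of miR-214-/- mice, and these groups overlapped. In WT mice it was 18.1, 19.9 and 17.0 CPM in the sham libraries and 46.9, 50.6 and 43.0 CPM after Ang II, where every Ang II library was above every sham library. The interaction log2 fold change, miR-214-/- minus WT, was -1.51 ± 0.15 (SE), with an edgeR adjusted p = 0.0109. No gene passed with the red-cell covariate, nor without WT sham 1, WT sham 3, miR-214-/- sham 2 or miR-214-/- sham 3.

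**Figure D2:**
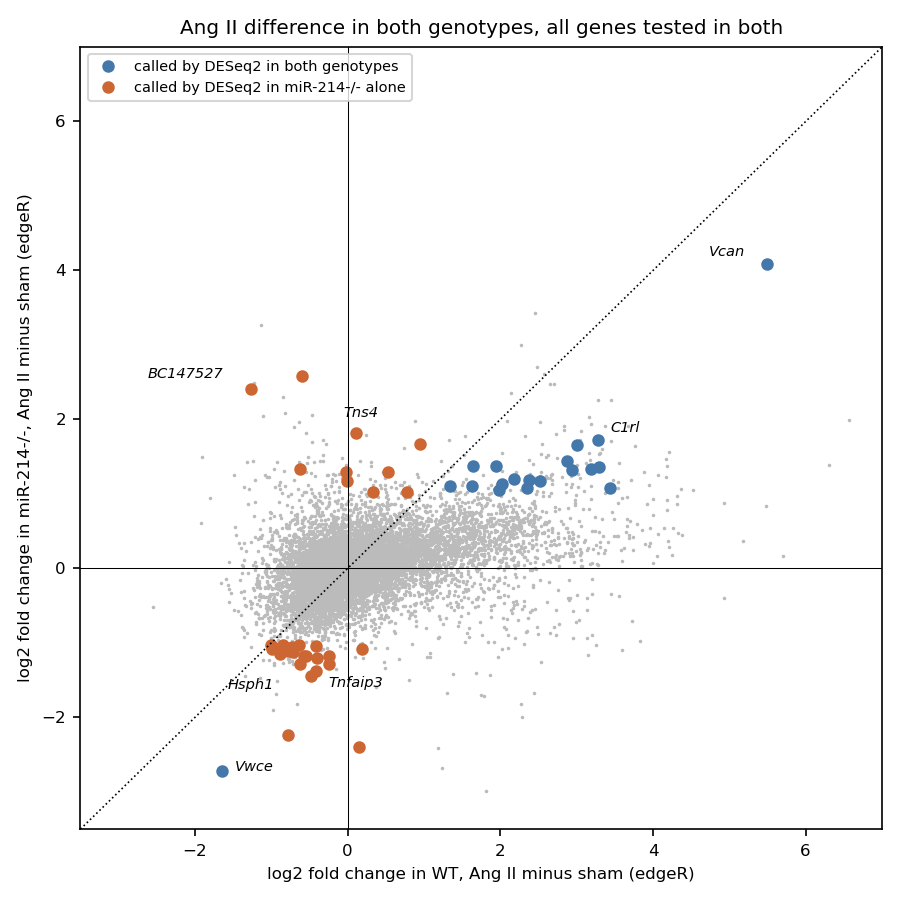
The log2 fold change of Ang II against sham in WT (horizontal) and in miR-214-/- (vertical), both from edgeR, for the 15622 genes tested in both, with a dotted line of equality. Coloured points are 50 of the 51 genes that DESeq2 called in miR-214-/-, blue where DESeq2 also called them in WT and orange where it did not. More genes lie above 1 on the WT axis than on the miR-214-/- axis (1687 against 276 over the genes tested in each).

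The 24 genes named here are the 12 lower and the 12 higher ones with the smallest edgeR p among genes whose groups do not overlap, a property shared by 1664 genes on the lower side (10.4% of those tested) and 1467 on the higher side (9.20%). Their edgeR adjusted p ranged from 0.149 to 0.218. All 24 had a DESeq2 adjusted p under 0.05, from the same counts that chose them. None changed sign when any 1 library was left out, which the choice of non-overlapping groups made nearly certain.

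Cd69, the early activation receptor that holds T cells in tissue by opposing the sphingosine 1-phosphate receptor, was the lower gene with the smallest p (chr6:129267325-129275436). Its level was 138, 137 and 131 CPM in the sham libraries and 80.4, 75.8 and 87.5 CPM in the Ang II libraries. The sham libraries lay close together and all above the Ang II libraries, with a log2 fold change of -0.74 ± 0.07 (SE, 3 mice per group; edgeR adjusted p = 0.149, DESeq2 adjusted p = 7.20e-08). Dusp1, a phosphatase that switches off MAP kinases (chr17:26505590-26562128), was at 158, 149.5 and 171 CPM in the sham libraries and 94.2, 86.4 and 98.3 CPM in the Ang II libraries. It separated the groups as cleanly, and its log2 fold change was -0.78 ± 0.08. Dusp1 overlaps the tested gene Ergic1 on the opposite strand, and the strand setting of the counting is not given in the sources used here. Tgif1, a repressor of TGF-beta-responsive transcription, was at 41.5, 45.7 and 43.2 CPM in the sham libraries and 28.6, 26.4 and 24.9 CPM in the Ang II libraries, and Mib2, a ubiquitin ligase of the Notch pathway, was at 65.5, 72.2 and 75.3 CPM in the sham libraries and 44.5, 46.1 and 45.7 CPM in the Ang II libraries. N4bp2l1 was at 85.0, 92.1 and 91.3 CPM in the sham libraries and 57.4, 61.9 and 57.3 CPM in the Ang II libraries. In each of the 3 the highest Ang II library stayed well below the lowest sham library, and the log2 fold changes were -0.71, -0.64 and -0.60.

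Other genes on the lower side had similar sizes of difference. Dnajb9, a chaperone of the endoplasmic reticulum that dampens IRE1, had a log2 fold change of -0.69, and the ubiquitin ligase gene Trim65 had -0.74. Flcn, which encodes folliculin, a regulator of nutrient sensing by mTORC1, had -0.47. For Lmbr1l it was -0.40, for E4f1 -0.41 and for AI480526 -0.79. AI480526 overlaps Gm38102, which DESeq2 also called lower, so reads of the pair may be shared between them.

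Among these 12 higher genes, BC147527 had the largest log2 fold change (chr13:120300392-120308779). Its level was 1.58, 1.25 and 1.71 CPM in the sham libraries and 6.70, 10.1 and 7.45 CPM in the Ang II libraries, all Ang II libraries being above the sham ones, with a log2 fold change of 2.41 ± 0.24 (edgeR adjusted p = 0.149, DESeq2 adjusted p = 4.47e-13). In WT its log2 fold change was -1.26, and the difference between the genotypes was 3.70 (edgeR adjusted p = 0.213, DESeq2 adjusted p = 4.84e-05). Its transcripts share 23.5% of their 31-base words with other genes of its family, so its reads are partly ambiguous.

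E2f2, a transcription factor of the cell cycle that also restrains T cell proliferation, was at 35.7, 29.8 and 43.0 CPM in the sham libraries and 78.2, 90.8 and 65.5 CPM in the Ang II libraries. It was higher by 1.11 ± 0.17 on the log2 scale and rose in DESeq2's test (DESeq2 adjusted p = 1.00e-06). In WT its log2 fold change was 1.35 (edgeR adjusted p = 0.00342). Ly6a, the Sca-1 antigen of activated and memory T cells and of progenitors, was at 91.4, 72.9 and 75.6 CPM in the sham libraries and 128, 128 and 120.1 CPM in the Ang II libraries. The groups did not overlap, and its log2 fold change was 0.65 in miR-214-/- and 0.03 in WT (interaction edgeR adjusted p = 0.244, DESeq2 adjusted p = 0.12). Its transcripts share 31.9% of their words with Ly6c1 and Ly6i.

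Lamp2, a lysosomal membrane protein, was at 59.2, 54.3 and 62.0 CPM in the sham libraries and 79.3, 86.6 and 83.7 CPM in the Ang II libraries. The leucyl-tRNA synthetase gene Lars was at 87.7, 85.9 and 85.4 CPM in the sham libraries and 116, 114 and 126 CPM in the Ang II libraries, and Plekho2 was at 46.6, 45.9 and 52.5 CPM in the sham libraries and 69.3, 83.9 and 76.5 CPM in the Ang II libraries. These are modest and tight differences, with log2 fold changes of 0.51, 0.46 and 0.66. In WT they were 1.01, 0.27 and 0.44. Ptpn7, a phosphatase of haematopoietic cells that acts on MAP kinases, had a log2 fold change of 0.54, and the myosin gene Myo5a had 0.50. The values were 0.48 for the coatomer gene Copg2, 0.83 for the solute carrier Slc22a15 and 0.59 for the mitochondrial ATP carrier Slc25a24. For C1rl, a protease related to complement C1r, it was 1.72. Its level was 1.62, 1.11 and 1.85 CPM in the sham libraries and 4.11, 6.10 and 4.98 CPM in the Ang II libraries. C1rl was also higher in WT, by 3.28 on the log2 scale (edgeR adjusted p = 0.00927).

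**Figure D3:**
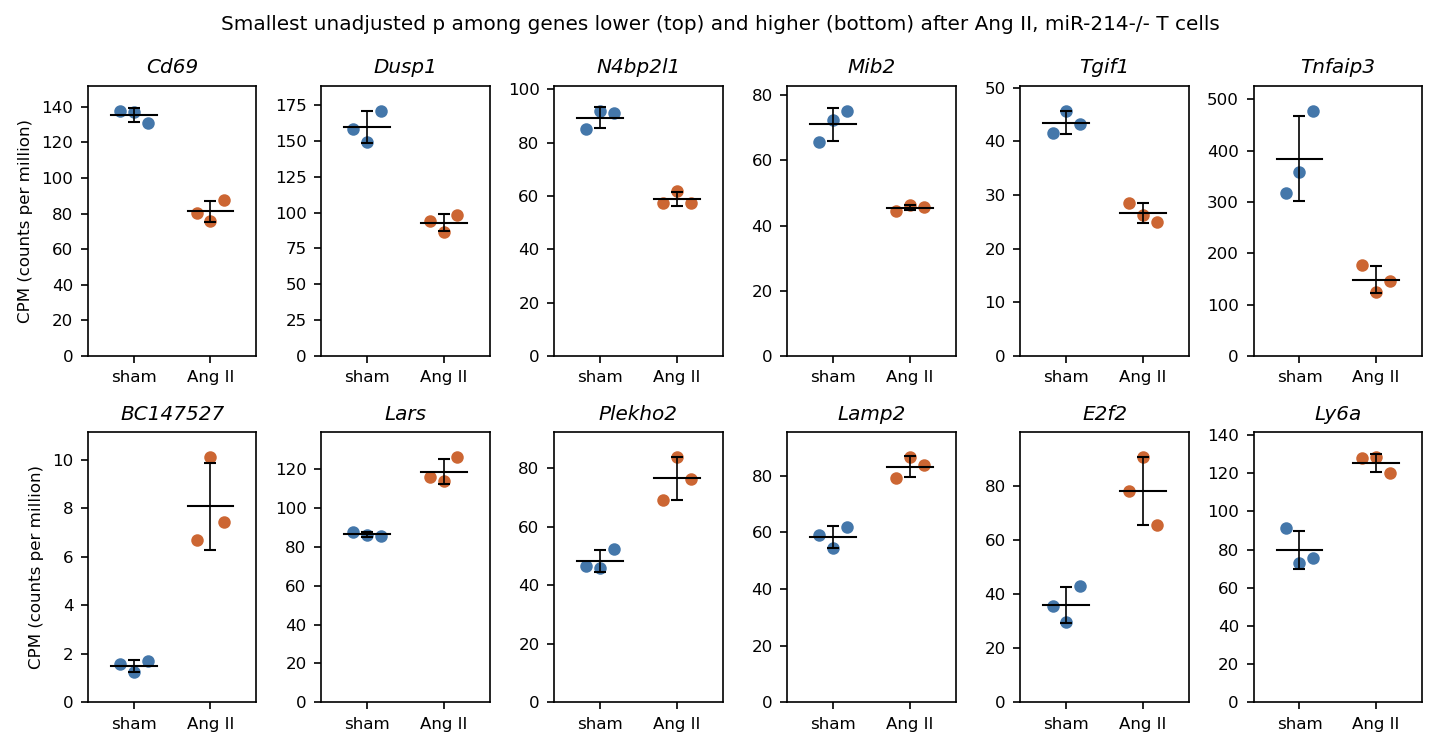
CPM in each miR-214-/- library (points) with the mean ± SD of each group for 6 of the lower genes (Cd69, Dusp1, N4bp2l1, Mib2, Tgif1, Tnfaip3) and 6 of the higher genes (BC147527, Lars, Plekho2, Lamp2, E2f2, Ly6a), each vertical axis starting at 0. In every panel the 3 Ang II libraries lie on one side of the 3 sham libraries.

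The 51 genes that DESeq2 called included 48 whose groups did not overlap, against 9.20% higher and 10.4% lower of all genes tested. All 50 that edgeR tested had an unadjusted edgeR p under 0.05, against 12.2% of all genes tested. DESeq2 chose these genes from the same counts, which made both results likely. Of the 28 that rose by DESeq2's test, 18 were also called higher by DESeq2 in WT, where 7.98% of genes were. Of the 23 that fell, 1 was called lower in WT, namely Vwce, where 0.226% of genes were. Without the limit on the fold, 18 of the 28 and 8 of the 23 had a DESeq2 adjusted p under 0.05 in the same direction in WT, against 14.6% of genes higher and 7.47% lower, and Pde3b was among those 8. The direction in WT was the same for 43 of the 51. By edgeR's interaction test, 19 of them had an unadjusted p under 0.05, against 14.8% of all genes, and none passed after adjustment. By DESeq2's interaction test 4 passed, against 3.22% of all genes: BC147527, Tns4, Ms4a3 and Atg14. Leaving out 1 library at a time, 7 of the 51 stayed called by DESeq2 in all 6 fits: BC147527, Tns4 and C1rl among the higher genes and Hsph1, Tnfaip3, Tbx6 and Fer1l5 among the lower ones. With a single library left out, DESeq2 called between 21 and 94 genes, so the number of calls depended on which mice were included, and the fewest were called without sham 2 and the most without Ang II 1.

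Among the largest rises were genes that monocytes and granulocytes express. Vcan, the matrix proteoglycan versican that classical monocytes express, was at 0.333, 0.277 and 0.178 CPM in the sham libraries and 0.438, 5.96 and 7.06 CPM in the Ang II libraries, so the rise came from Ang II 2 and Ang II 3 while Ang II 1 was near the sham libraries (log2 fold change 4.08 ± 0.98, DESeq2 adjusted p = 5.23e-05). F10, coagulation factor X, was at 6.15, 2.26 and 2.64 CPM in the sham libraries and 7.77, 13.9 and 13.2 CPM in the Ang II libraries. Clec5a, a myeloid lectin receptor, was at 4.16, 1.48 and 5.20 CPM in the sham libraries and 6.82, 12.6 and 10.1 CPM in the Ang II libraries, and Serpinb1a, an inhibitor of neutrophil proteases, was at 10.1, 5.81 and 12.2 CPM in the sham libraries and 18.2, 39.1 and 15.9 CPM in the Ang II libraries. These 3 had their lowest value in sham 2 and log2 fold changes of 1.66, 1.44 and 1.38. In WT their log2 fold changes were 3.00, 2.87 and 1.64, and that of Vcan was 5.5. The focal adhesion gene Tns4 was at 6.44, 2.90 and 3.99 CPM in the sham libraries and 9.76, 19.6 and 17.6 CPM in the Ang II libraries (log2 fold change 1.81, against 0.11 in WT). Plekhg1 and Gm9733 were low, at no more than 3.00 CPM and 4.41 CPM in any library.

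Among the falls, Vwce was at 2.66, 3.00 and 8.16 CPM in the sham libraries and 0.438, 0.830 and 0.823 CPM in the Ang II libraries and Tbx6, a T-box transcription factor, at 10.8, 15.9 and 16.0 CPM in the sham libraries and 7.01, 4.80 and 6.80 CPM in the Ang II libraries. Both were lower in every Ang II library, with log2 fold changes of -2.72 and -1.20. Fer1l5 was at 11.1, 14.9 and 16.6 CPM in the sham libraries and 5.18, 5.56 and 6.67 CPM in the Ang II libraries, but it overlaps Lman2l, also called lower, on the opposite strand, and the strand setting of the counting is not given in the sources used here. Of the 51 genes, 11 overlap a tested gene on the other strand, Prtn3 among them. Pde3b, the cyclic nucleotide phosphodiesterase of T cells that lowers cAMP, was at 235, 328 and 252 CPM in the sham libraries and 88.6, 128 and 151 CPM in the Ang II libraries. It fell by 1.15 on the log2 scale (DESeq2 adjusted p = 3.18e-05). Ect2l, Gm18009 and Rec114 were at no more than 4.95 CPM in any library. Klk1b22 was at 0.0416, 38.9 and 13.1 CPM in the sham libraries and 0 in all 3 Ang II libraries, so 1 sham library was as low as the Ang II ones, and its transcripts share 41.1% of their words with other kallikrein genes.

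Immediate early and NF-kB genes were mostly lower after Ang II. Of the 35 genes of this list, all tested, 11 were lower at an unadjusted edgeR p under 0.05 and 1 was higher, where 6.34% and 5.82% of all genes tested were. The groups did not overlap for 12 on the lower side and 2 on the higher side, against 10.4% and 9.20% of all genes tested. The median log2 fold change was -0.27, against 0.03 over all genes tested. By DESeq2's adjusted p 9 genes fell and none rose, against 1.33% and 0.798% of all genes. Leaving out 1 library at a time gave 9 to 13 lower genes and medians between -0.33 and -0.22.

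Fos, Fosb, Jun and Junb, subunits of AP-1, were lower. Fos was at 277, 188 and 238 CPM in the sham libraries and 130.2, 137 and 167 CPM in the Ang II libraries, and Fosb at 54.2, 36.6 and 54.9 CPM in the sham libraries and 25.7, 17.8 and 23.4 CPM in the Ang II libraries. Jun was at 276, 247 and 317 CPM in the sham libraries and 189, 175 and 160.1 CPM in the Ang II libraries, and Junb at 814, 625 and 773 CPM in the sham libraries and 426, 560.3 and 474 CPM in the Ang II libraries. No Ang II library reached the sham range for any of the 4, and their log2 fold changes were -0.70, -1.12, -0.68 and -0.60. Jun and Junb overlap the tested genes Junos and Prdx2 on the opposite strand, so reads may be shared between them. For the further AP-1 members Jund and Atf3 the groups overlapped, with log2 fold changes of -0.20 and -0.91. Tnfaip3, which encodes A20, the deubiquitinase that restrains NF-kB and is itself an NF-kB target (chr10:19000910-19015657), was at 317, 358 and 478 CPM in the sham libraries and 176, 124 and 145 CPM in the Ang II libraries. Each Ang II library held less than the lowest sham library by a wide margin, and the log2 fold change was -1.37 ± 0.19 (DESeq2 adjusted p = 3.78e-10). Klf6, a zinc-finger transcription factor, and Ppp1r15a, the GADD34 subunit that reverses translational arrest, fell as well in DESeq2's test, with log2 fold changes of -0.52 and -0.64.

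For 21 of the 35 the groups overlapped, among them several immediate early genes. Nr4a1, an orphan nuclear receptor induced by antigen receptor signals, had a log2 fold change of -0.54 with a 95% interval of -1.20 to 0.12. For Egr1 the log2 fold change was -0.11, with an interval of -0.32 to 0.10, and for Nfkbia, the inhibitor IkB-alpha, it was -0.23, with -0.48 to 0.02. Of the 35, 4 had a log2 fold change above 0, and the one of them at an unadjusted edgeR p under 0.05 was Egr3, at 9.14, 10.7 and 8.80 CPM in the sham libraries and 11.9, 12.5 and 12.1 CPM in the Ang II libraries, a log2 fold change of 0.35 (edgeR adjusted p = 0.396). In WT the list had a median of -0.34, and 10 genes were lower at an adjusted edgeR p under 0.05, against 7.06% of all genes. The interaction had an unadjusted edgeR p under 0.05 for 6 of the 35, against 14.8% of all genes. After adjustment it passed for none in edgeR and 1 in DESeq2, against 0.00596% and 3.22% of all genes.

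Heat shock genes were also mostly lower after Ang II. Of the 21 tested, 11 were lower at an unadjusted edgeR p under 0.05, against 6.34% of all genes tested, and none was higher. The groups did not overlap for 12, all on the lower side, against 10.4% of all genes. By DESeq2's adjusted p, 8 fell and none rose, against 1.33% and 0.798% of all genes. The median log2 fold change was -0.45, and it lay between -0.58 and -0.32 with each library left out, with 8 to 15 lower genes. The summed level was 7235, 7291 and 9791 CPM in the sham libraries and 5885, 5969 and 5662 CPM in the Ang II libraries.

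Hsph1, the large heat shock protein HSP110 that works with HSP70 (chr5:149614287-149636376), was at 279.7, 284 and 493 CPM in the sham libraries and 113, 127 and 146 CPM in the Ang II libraries. Sham 3 was the highest library, and every Ang II library was below every sham library. Its log2 fold change was -1.45 ± 0.24 (95% interval -2.01 to -0.89, edgeR adjusted p = 0.218, DESeq2 adjusted p = 1.01e-07). In WT it was -0.48, with an interaction edgeR adjusted p = 0.329, DESeq2 adjusted p = 0.159. Stip1, which links HSP70 to HSP90, was at 255, 256 and 367 CPM in the sham libraries and 153, 165 and 168 CPM in the Ang II libraries. Chordc1, a cochaperone of HSP90, was at 195, 179 and 255 CPM in the sham libraries and 94.6, 130.1 and 141 CPM in the Ang II libraries. Both were lower in every Ang II library, by -0.85 and -0.78 on the log2 scale. Hsp90ab1, the constitutive cytosolic HSP90, was at 2214, 2276 and 2884 CPM in the sham libraries and 1903, 1793 and 1708 CPM in the Ang II libraries, and Hsf1, the transcription factor of the heat shock response, at 74.2, 73.8 and 73.6 CPM in the sham libraries and 59.7, 53.8 and 60.0 CPM in the Ang II libraries. Their log2 fold changes were -0.45 and -0.35.

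The inducible HSP70 genes went the other way in 1 library. Hspa1a was at 2.91, 3.18 and 6.87 CPM in the sham libraries and 33.4, 2.31 and 1.69 CPM in the Ang II libraries, and Hspa1b at 8.73, 8.16 and 30.7 CPM in the sham libraries and 87.6, 7.44 and 5.20 CPM in the Ang II libraries. Ang II 1 alone was high, while Ang II 2 and Ang II 3 lay below the sham libraries. The edgeR adjusted p was 0.596 for Hspa1a and 0.712 for Hspa1b. The pair share 65.4% and 68.0% of their 31-base words with other genes, so their unique reads come from part of each transcript only.

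HSF1 binds inverted repeats of GAA, and promoters were searched for 3 such units in a row, GAANNTTCNNGAA or its reverse complement TTCNNGAANNTTC, from 250 bases before to 50 after the RefSeq start on GRCm38.p6. The element was found in 198 of 32851 promoters (0.603%) and in 4 of the 17 heat shock genes tested that have a promoter in the table (23.5%). These 4 windows are shown because they hold the element in the 4 genes where it was found, each in the direction of its gene. Only the first match of each promoter is in capitals. The promoter of Chordc1 held 3 matches, those of Hspd1 and Hspe1 2 each and that of Hsph1 1, and matches may overlap.
Chordc1, chr9:18292255-18292283, plus strand: tgcaaccgGAACGTTCGGGAAaattcctg
Hsph1, chr5:149636280-149636308, minus strand: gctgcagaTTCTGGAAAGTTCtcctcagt
Hspd1, chr1:55088056-55088084, minus strand: gcggggccTTCCGGAAGGTTCtagaacgg
Hspe1, chr1:55088051-55088079, plus strand: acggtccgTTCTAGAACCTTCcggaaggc
The windows of Hspd1 and Hspe1 overlap on opposite strands and are offset from each other, since this pair of mitochondrial chaperones shares a promoter. Of the 9 genes with a promoter whose groups did not overlap and which were lower, 2 held the element (Chordc1 and Hsph1), and of the other 8, 2 did. Hspd1 and Hspe1 had log2 fold changes of -0.20 and -0.07, with intervals of -0.69 to 0.29 and -0.51 to 0.37. A match is a description of these letters and no measurement of binding.

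**Figure D4:**
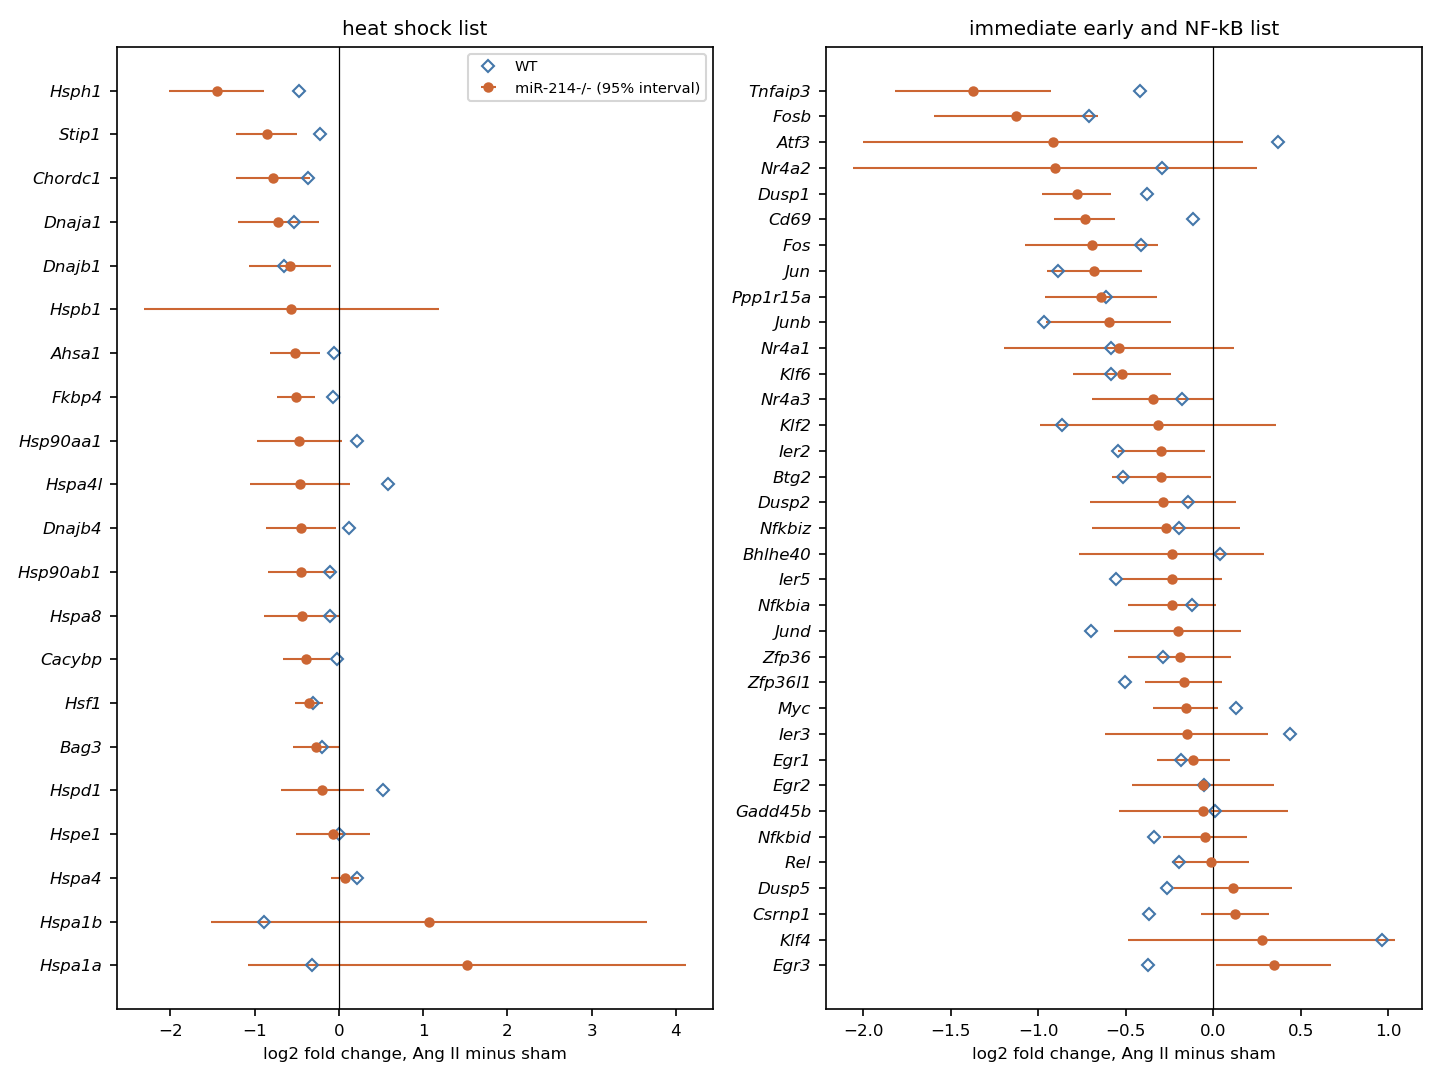
The log2 fold change of Ang II against sham in miR-214-/- (orange, with its 95% interval) and in WT (blue diamonds) for each tested gene of the heat shock list (left) and the immediate early and NF-kB list (right). Most orange points lie below 0 in both panels; Hspa1a and Hspa1b lie above it with intervals that span 0.

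Genes that mark naive and resting T cells were lower in part. Of 18 tested, 5 were lower at an unadjusted edgeR p under 0.05, against 6.34% of all genes tested, and none was higher. The groups did not overlap for 8, all on the lower side, against 10.4% of all genes. The median log2 fold change was -0.26 (-0.41 to -0.10 with each library left out). Without Ang II 1 the median was -0.10, with 3 genes higher and 3 lower. The summed level was 11801, 9760 and 9303 CPM in the sham libraries and 6646, 10178 and 9952 CPM in the Ang II libraries. Ang II 1 alone lay below the sham range. Il7r, the receptor for the survival cytokine IL-7, was at 1387, 1213 and 931 CPM in the sham libraries and 505, 746 and 811 CPM in the Ang II libraries. It fell by 0.78 on the log2 scale (DESeq2 adjusted p = 0.0132). Tob1, a negative regulator of proliferation, was at 72.6, 60.0 and 67.3 CPM in the sham libraries and 31.2, 45.5 and 43.3 CPM in the Ang II libraries, and Klf3, a transcriptional repressor, at 581, 515 and 458 CPM in the sham libraries and 334, 359.8 and 385 CPM in the Ang II libraries. Both fell in DESeq2's test, with log2 fold changes of -0.74 and -0.53. Ccr7, which guides T cells to lymph nodes, overlapped between the groups, with a log2 fold change of -0.22. Igfbp4 was at 554, 279 and 342 CPM in the sham libraries and 373, 719 and 704 CPM in the Ang II libraries, with sham 2, sham 3 and Ang II 1 as the low libraries. In WT 16 of the 18 were lower at an adjusted edgeR p under 0.05, against 7.06% of all genes. Their median there was -0.59.

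The T cell identity genes differed little. The median log2 fold change of the 18 tested was -0.04. At an unadjusted edgeR p under 0.05 none was higher and 1 was lower, against 5.82% and 6.34% of all genes tested. That gene was Cd28, the costimulatory receptor, at 336, 321 and 274 CPM in the sham libraries and 214, 221 and 259.9 CPM in the Ang II libraries (log2 fold change -0.42, edgeR adjusted p = 0.291). The log2 fold change was -0.16 for Cd3e, -0.12 for Lck and 0.12 for Trac, each with overlapping groups. In WT 16 of the 18 were lower at an adjusted edgeR p under 0.05, against 7.06% of all genes, with a median of -0.51. The interaction had an unadjusted edgeR p under 0.05 for 13 of the 18, against 14.8% of all genes. After adjustment none passed in edgeR and 2 did in DESeq2, against 0.00596% and 3.22% of all genes. Of the 35 T cell receptor signalling genes, 3 were lower and 1 higher at that unadjusted threshold, with a median of -0.08. The higher gene was Sit1, an adaptor that dampens receptor signals, at 33.4, 24.9 and 25.5 CPM in the sham libraries and 38.3, 57.9 and 48.6 CPM in the Ang II libraries. It rose in DESeq2's test (adjusted p = 0.00563), while in WT its log2 fold change was -0.40 (interaction edgeR adjusted p = 0.213, DESeq2 adjusted p = 0.0144).

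Helper lineage, activation and effector genes gave few differences. The counts are at an unadjusted edgeR p under 0.05, which 5.82% of all genes tested passed as higher and 6.34% as lower. Of 14 lineage factors 1 was higher, Zbtb7b, which directs CD4 cells (0.33), and none lower. Of 20 activation genes 1 was higher and 2 lower, of 14 checkpoint genes 1 and 1, and of 20 cytotoxic genes none and 1. The latter was Gzma, granzyme A, at 71.1, 47.1 and 71.5 CPM in the sham libraries and 44.1, 45.9 and 43.6 CPM in the Ang II libraries. Of 14 regulatory T cell genes 3 were higher, led by the actin-capping gene Capg (0.67), and 1 was lower, Itgae (-0.27). Foxp3, the factor that defines these cells, had a log2 fold change of 0.28 with an interval of -0.07 to 0.63. The list medians were -0.03 for lineage factors, 0.13 for activation, 0.0017 for checkpoint genes, -0.07 for cytotoxic genes and 0.15 for regulatory genes.

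Several chemokine receptors were higher after Ang II and a few were lower. Of 22 tested, 6 were higher and 2 lower at an unadjusted edgeR p under 0.05, against 5.82% and 6.34% of all genes tested. The median log2 fold change was 0.20. Ccr6, the receptor of Th17 cells and some B cells, was at 4.16, 3.78 and 4.70 CPM in the sham libraries and 7.05, 12.3 and 6.41 CPM in the Ang II libraries. Ccr2, the receptor that brings monocytes and effector T cells to CCL2, was at 132, 70.1 and 98.0 CPM in the sham libraries and 163, 173 and 238 CPM in the Ang II libraries. Both rose in DESeq2's test (adjusted p = 0.028 and 0.00526), with log2 fold changes of 1.03 and 0.94, and sham and Ang II libraries did not overlap. Ccr1 was at 7.52, 5.49 and 12.1 CPM in the sham libraries and 13.2, 20.9 and 13.1 CPM in the Ang II libraries (log2 fold change 0.91, DESeq2 adjusted p = 0.0852). Ccr4 overlapped between the groups, at 0.51, and Cxcr3, the Th1 receptor, was at 0.35 (interval -0.01 to 0.71). Monocyte genes, a list that includes Ccr2 itself, were also higher after Ang II (10 of 25, against 5.82% of all genes tested). The part of monocytes in the values of Ccr1 and Ccr2 was not tested.

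Ccr9, which binds CCL25 of the gut and thymus, was at 39.9, 63.5 and 46.9 CPM in the sham libraries and 19.9, 33.0 and 30.2 CPM in the Ang II libraries and fell in DESeq2's test by 0.85 on the log2 scale (adjusted p = 0.0171). Cxcr4, the receptor for CXCL12, was at 233, 219 and 182 CPM in the sham libraries and 109.5, 178 and 122 CPM in the Ang II libraries. All Ang II libraries were below the sham ones, with a log2 fold change of -0.63 in miR-214-/- and 0.23 in WT, a difference between genotypes of -0.84 (edgeR adjusted p = 0.228, DESeq2 adjusted p = 0.0427). Of 22 integrin and adhesion genes 1 was higher and 2 were lower, against 5.82% and 6.34% of all genes tested. Their median was 0.05.

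The cytokines that the study measured in T cells showed no difference that passed a test. Of 22 on the list, 15 were tested, with a median log2 fold change of -0.0034. At an unadjusted edgeR p under 0.05, 1 was higher, Tnfsf11 (0.50), against 5.82% of all genes tested. Tgfb1, the profibrotic cytokine TGF-beta 1, was at 151, 122 and 139 CPM in the sham libraries and 151, 162 and 163 CPM in the Ang II libraries, with overlapping groups and a log2 fold change of 0.21 (interval -0.01 to 0.43). For Tnf it was 0.12 (interval -0.38 to 0.62), for Ccl5 0.20 (-0.42 to 0.82) and for Ifng -0.39 (-1.02 to 0.24). Il17a was at or under 0.173 CPM in every library and was not tested, and Il9 had 0 counts in all 6. These are unstimulated cells, so the levels are those at isolation.

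Of 26 cytokine receptors 5 were higher and 4 lower, against 5.82% and 6.34% of all genes tested, with a median of 0.06. Besides Il7r, the lower ones included Ifngr1, the interferon-gamma receptor, at 354, 313 and 275 CPM in the sham libraries and 168, 229.9 and 245 CPM in the Ang II libraries, and Il12rb2, the receptor chain of Th1 cells (-0.52). The highest was Csf2rb, the shared chain of the IL-3 and GM-CSF receptors (0.63), which myeloid cells express. Of 20 TGF-beta pathway genes 1 was higher and 2 lower, Tgif1 and Furin (-0.27), with a median of -0.05. Of 19 matrix genes 3 were higher and 2 lower, with a median of 0.25. They included Vcan, which is also on the monocyte list, and Lgals3, which encodes galectin-3 (0.85). On the lower side was the lysyl hydroxylase Plod1 (-0.79, DESeq2 adjusted p = 0.00838).

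Receptors for Ang II and steroids were low or similar. Agtr1a, the type 1a Ang II receptor, was at 0.291, 3.00 and 1.82 CPM in the sham libraries and 5.34, 1.26 and 0.303 CPM in the Ang II libraries, so the values ranged widely within both groups (log2 fold change 0.44 ± 1.03). Agtr2 had 0 counts in these libraries. The glucocorticoid receptor Nr3c1 was at 207, 213 and 217 CPM in the sham libraries and 167, 200.5 and 197 CPM in the Ang II libraries, a log2 fold change of -0.17 (edgeR adjusted p = 0.48), and the mineralocorticoid receptor Nr3c2 was at 2.29, 2.49 and 1.53 CPM in the sham libraries and 2.47, 2.60 and 2.56 CPM in the Ang II libraries, with 0.28. The 14 genes tested in this list had a median of 0.0016. None was higher and 1 was lower, against 5.82% and 6.34% of all genes tested. It was the clock gene Per1, a glucocorticoid target, at 52.7, 62.4 and 53.9 CPM in the sham libraries and 44.1, 42.3 and 39.1 CPM in the Ang II libraries (DESeq2 adjusted p = 0.036), and in WT its log2 fold change was 0.16 (interaction edgeR adjusted p = 0.213, DESeq2 adjusted p = 0.0389).

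Markers of other cells were higher after Ang II for the monocyte and early granulocyte lists. Of 25 monocyte genes, 10 were higher at an unadjusted edgeR p under 0.05, against 5.82% of all genes tested, and none was lower. The groups did not overlap for 10, all on the higher side, against 9.20% of all genes. The median log2 fold change was 0.52, between 0.31 and 0.77 with each library left out, with 6 to 10 higher genes. The summed level was 2431, 1479 and 2203 CPM in the sham libraries and 2413, 3549 and 2912 CPM in the Ang II libraries, so these sums overlapped. F13a1, a coagulation factor subunit of monocytes, was at 116, 33.9 and 82.7 CPM in the sham libraries and 163, 179 and 228 CPM in the Ang II libraries. Gda, guanine deaminase, and Plac8 rose in DESeq2's test (adjusted p = 0.00263 and 0.0458). Csf1r, the receptor that defines the lineage, had a log2 fold change of 0.09, and Ly6c2 had 0.52.

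Of 14 early granulocyte genes, 6 were higher, against 5.82% of all genes tested, and none lower. Their median was 1.09, and 0.55 without Ang II 1. Prtn3, proteinase 3 of granulocyte precursors, was at 29.0, 13.5 and 32.7 CPM in the sham libraries and 80.1, 44.2 and 65.9 CPM in the Ang II libraries, and each Ang II library was above each sham library (log2 fold change 1.34, DESeq2 adjusted p = 0.00177). Mpo, the myeloperoxidase of the same cells, had 0.99 and overlapping groups. Of 22 neutrophil genes 1 was higher, and their median of 1.23 was 0.08 to 1.68 with each library left out, the lowest value being that without Ang II 2. In WT the medians were 1.30 for monocyte, 3.01 for early granulocyte and 2.86 for neutrophil genes. The interaction had an unadjusted edgeR p under 0.05 for 5 of 25, 6 of 14 and 7 of 22, against 14.8% of all genes. It passed after adjustment for none in edgeR and for 2, 2 and 0 in DESeq2, against 0.00596% and 3.22% of all genes.

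Megakaryocyte genes were higher for 5 of 26, against 5.82% of all genes tested, with a median of 0.37. They were led by Pf4, platelet factor 4, at 2.54, 3.13 and 4.45 CPM in the sham libraries and 6.74, 5.71 and 4.81 CPM in the Ang II libraries. Red-cell genes varied widely within the groups. Of 39 membrane and factor genes 2 were higher, with a median of 0.44 that lay between -0.30 and 0.86 with each library left out, and of 20 globin and haem genes 6 were higher, with a median of 0.37 between -0.11 and 0.71. Hbb-bs, an adult beta globin, was at 117, 119.7 and 119 CPM in the sham libraries and 114, 1973 and 226 CPM in the Ang II libraries, so Ang II 2 carried that difference. In WT the medians were 3.20 and 2.34. The interaction had an unadjusted edgeR p under 0.05 for 28 of 39 and 13 of 20 genes, against 14.8% of all genes. B cell genes had a median of 1.12, and of -0.07 without Ang II 2, with 2 of 24 higher. Their levels varied within the groups, as for Cd79a, a subunit of the B cell receptor, at 11.3, 24.5 and 17.0 CPM in the sham libraries and 21.2, 87.0 and 10.8 CPM in the Ang II libraries. Plasma cell genes had a median of -0.12 (1 of 24 higher), NK cell genes -0.15 (1 higher and 1 lower of 16), macrophage genes -0.05 (none of 27) and dendritic cell genes 0.17 (3 higher and 1 lower of 21). For basophil and mast cell genes it was 0.16 (none of 17), for stroma and endothelium 0.20 (1 higher of 14) and for progenitors 0.31 (4 higher and 1 lower of 20).

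The medians of the proliferation lists were smaller than those in WT mice and were near or below 0 without Ang II 1. Of 51 mitosis genes 1 was higher and 2 were lower, against 5.82% and 6.34% of all genes tested. Their median log2 fold change was 0.50 (0.04 to 0.69 with each library left out). The summed level was 1804, 2239 and 2266 CPM in the sham libraries and 3248, 2030 and 2094 CPM in the Ang II libraries, so Ang II 1 alone was high. Mki67, the proliferation antigen Ki-67, was at 156, 255 and 269 CPM in the sham libraries and 487, 287 and 283 CPM in the Ang II libraries (log2 fold change 0.64 ± 0.28). In WT 47 of the 51 were higher at an adjusted edgeR p under 0.05, against 11.7% of all genes, with a median of 2.07. The interaction had an unadjusted p under 0.05 for 47 of 51, against 14.8% of all genes, with a median of -1.58. None passed after adjustment in edgeR, and 46 did in DESeq2, against 0.00596% and 3.22% of all genes. Red-cell precursors divide too, and the red-cell membrane list was also highest in Ang II 1. With the level of that list as a covariate, the mitosis median was 0.30, with 9 genes higher and 3 lower. The DNA replication median was then 0.08. The part of red-cell precursors themselves in these values was not tested. Of 42 DNA replication genes 1 was higher, with a median of 0.29 against 1.30 in WT, and of -0.11 without Ang II 1. The interaction had an unadjusted edgeR p under 0.05 for 34 of them, against 14.8% of all genes. Its DESeq2 adjusted p was under 0.05 for 11, against 3.22% of all genes.

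Of 27 genes of the G1/S step, 3 were higher and 1 lower, against 5.82% and 6.34% of all genes tested, with a median of 0.18. The lower one was Cdkn1b, which encodes p27, an inhibitor that keeps T cells out of cycle, at 431, 442 and 429 CPM in the sham libraries and 273, 329.9 and 294 CPM in the Ang II libraries. It fell in DESeq2's test by 0.54 on the log2 scale (adjusted p = 0.000682). E2f7, a repressor of the same family as E2f2, had a log2 fold change of 0.65.

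Redox and energy lists had medians slightly above 0. Of 25 antioxidant genes 5 were higher, against 5.82% of all genes tested, and none lower, with a median of 0.23. Gsr, glutathione reductase, was at 34.5, 29.9 and 34.4 CPM in the sham libraries and 53.0, 45.0 and 45.0 CPM in the Ang II libraries, and Gpx1, glutathione peroxidase 1, at 182, 194 and 204 CPM in the sham libraries and 304, 375 and 219.6 CPM in the Ang II libraries. Both rose in DESeq2's test (adjusted p = 0.00704 and 0.0343). Of 10 NADPH oxidase genes 1 was higher, with a median of 0.31: Cybb, the catalytic subunit of the phagocyte oxidase, at 84.7, 58.5 and 96.0 CPM in the sham libraries and 109, 212 and 124 CPM in the Ang II libraries (DESeq2 adjusted p = 0.0299). Of 77 nuclear genes of the respiratory chain 6 were higher and none lower, 74 had a log2 fold change above 0, and the median was 0.18. Without Ang II 3 the number of higher genes was 43, and without any other library it was 1 to 6. The 10 messages of the mitochondrial genome had a median of 0.34, with none past the threshold, and medians of 0.55 without Ang II 1 and 0.10 without Ang II 2.

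**Figure D5:**
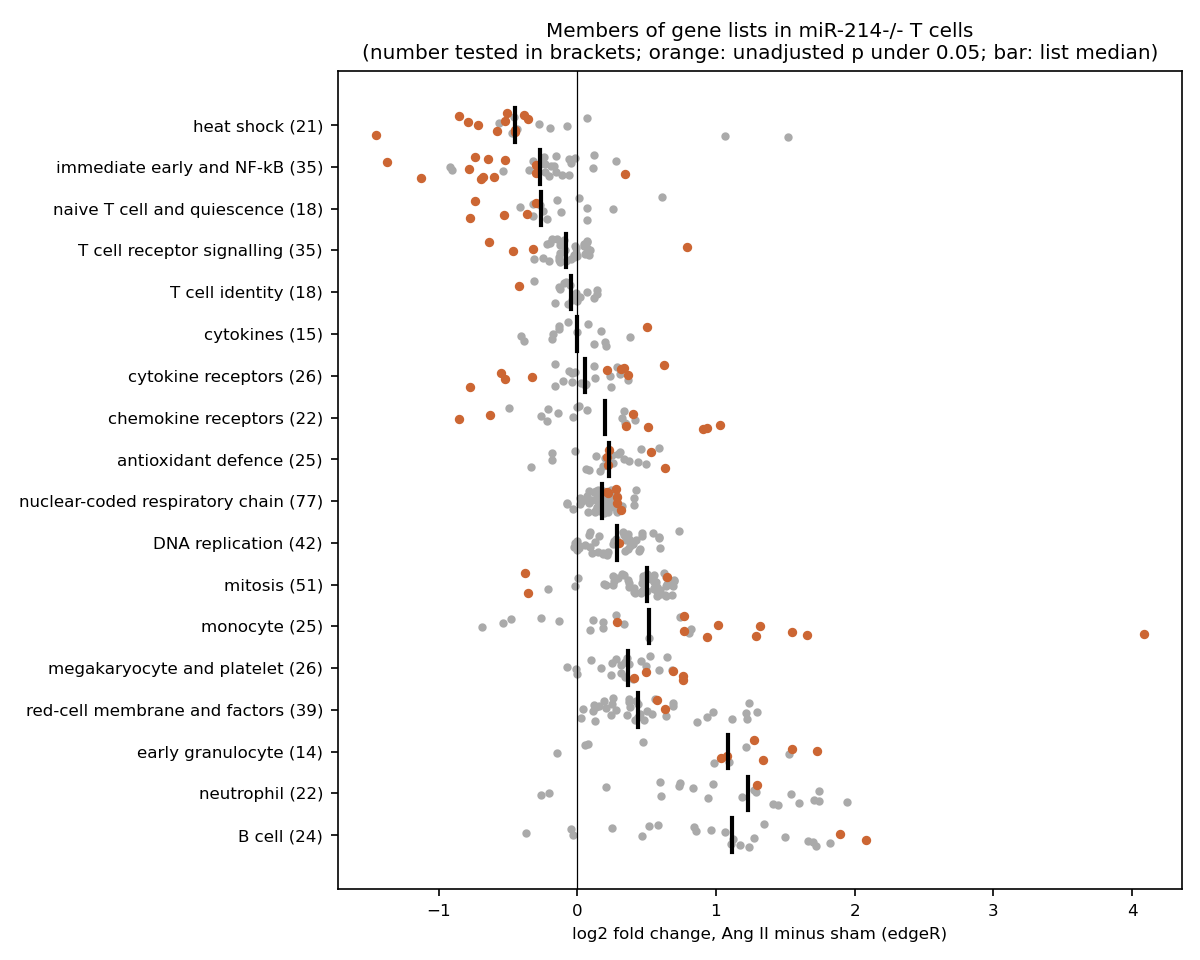
The log2 fold change (Ang II minus sham, edgeR) of each tested member of 18 gene lists in miR-214-/- T cells, orange where the unadjusted p was under 0.05, with a bar at the list median and the number tested in brackets. The medians of the heat shock, immediate early and naive lists lie to the left of 0, and those of the monocyte and early granulocyte lists to the right.

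Of 28 BCL2 family genes 4 were higher and 2 lower (median 0.10), and Bcl2l11, which encodes the pro-apoptotic BIM, was at 127, 125 and 94.3 CPM in the sham libraries and 67.7, 77.7 and 76.4 CPM in the Ang II libraries and fell in DESeq2's test (adjusted p = 0.00352). BIM is also one of 20 targets of miR-214 named in earlier literature, of which 2 were higher and 1 lower (median 0.05). Over all genes tested, 5.82% were higher and 6.34% lower at the same unadjusted edgeR threshold. Of 26 genes of endoplasmic reticulum stress 2 were lower (median 0.04), and of 20 dual-specificity phosphatases 1 was higher and 1 lower (0.07). Of 42 interferon-stimulated genes 3 were higher and 1 lower (0.02), led by Rsad2 at 7.52, 8.95 and 10.3 CPM in the sham libraries and 13.7, 70.2 and 17.2 CPM in the Ang II libraries, where Ang II 2 stood out. Of 32 lysosome genes 3 were higher and 2 lower (0.06), with Neu1, a sialidase, among the lower ones (-0.52, DESeq2 adjusted p = 0.00378). Of 12 Ly6 genes 4 were higher and 1 lower (0.55).

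Of 35 genes of glycolysis and hypoxia 4 were higher and 1 lower (median 0.14), among them Gapdh at 368, 330.0 and 359.7 CPM in the sham libraries and 418, 449 and 474 CPM in the Ang II libraries. Of 33 genes of cholesterol and fatty acid synthesis 1 was lower (0.15), and of 19 clock genes 1 was higher and 2 lower (0.01). Among all genes tested, 5.82% were higher and 6.34% lower. Of 25 MHC class I genes 2 were higher and 1 lower (-0.03), and of 18 MHC class II genes 2 were higher (0.61, and -0.0066 without Ang II 2), including Ifi30, a lysosomal thiol reductase of antigen processing (0.85, DESeq2 adjusted p = 0.00378). None of the 79 ribosomal protein genes and none of the 16 histone genes passed the unadjusted threshold, with medians of 0.21 (-0.05 without Ang II 2) and -0.02.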

How the data were processed

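Poly(A) RNA of splenic T cells was sequenced in 12 libraries. The authors trimmed the reads with Trimmomatic, aligned them to GRCm38 with STAR, counted unique exonic reads per gene with featureCounts (Subread 1.5.2) and deposited raw counts. The strand setting and annotation release are not given in the sources used here. All 12 columns were used, and 49056 of 49315 identifiers matched the mouse annotation, the other 259 holding 0.0245% of the counts. Groups followed the sample titles. No library was a copy of another.

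The 6 miR-214-/- libraries (21126874 to 29605988 counts) were fitted with edgeR 4.0.16 in R 4.3.3 (filterByExpr, TMM, quasi-likelihood test, Benjamini-Hochberg adjustment). Calls needed adjusted p values below 0.05 together with a log2 fold change larger than 1 in size. CPM are TMM-scaled, and intervals are at 95%. The interaction was fitted over all 12 libraries. DESeq2 1.42.0 (Wald test, independent filtering at 0.1) was the main alternative; others were scaling, filters, the quasi-likelihood fit, a replicate block, a red-cell covariate and leaving out each library. The scripts were tested on simulated data. Python 3.11.15 with pandas 2.3.3, numpy 2.4.6, scipy 1.17.1 and matplotlib 3.10.9 made the tables and figures.

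Genes were named by rule: the 12 smallest p in each direction among genes with non-overlapping groups, a mean log2 CPM above 1 and no predicted-gene name; the 8 largest DESeq2 rises and falls with a mean log2 CPM above 0; up to 3 members of each list with the largest difference at an unadjusted p under 0.05 and its defining members; and the genes that the study measured in T cells. Genes named outside this rule (Klk1b22, Pde3b, Cdkn1b, Hspa1a and Hspa1b among them) were chosen after their values were seen. The comparison and all 53 gene lists were chosen with earlier results of these data known, so the lists are described by counts and medians and carry no test of their own. Libraries are separate mice, with 3 per group, and an exact permutation test of 3 against 3 could not go below p = 0.1. Results for some genes are not reported here.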

Additional observations from a re-analysis of the deposited data

Results flagged for a closer look

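Frmd4a was the gene whose Ang II difference differed between the genotypes by edgeR's interaction test. The interaction log2 fold change, miR-214-/- minus WT, was -1.51 with an edgeR adjusted p = 0.0109. Its log2 fold change was -0.15 in miR-214-/- (edgeR adjusted p = 0.626) and 1.38 in WT (edgeR adjusted p = 0.00102), where all 3 Ang II libraries were above all 3 sham libraries. The call was lost with the red-cell covariate and without WT sham 1, WT sham 3, miR-214-/- sham 2 or miR-214-/- sham 3, where 0 genes passed.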

How the results depend on the processing

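For Ang II against sham in miR-214-/- T cells, where edgeR called 0 genes, DESeq2 called 51 and edgeR without a filter on low counts called 3. Leaving out 1 library at a time, edgeR called 0 to 1, with 1 gene without sham 1 and 1 without Ang II 2. Chosen after seeing the data, DESeq2 with each library left out called 74, 21 and 37 without sham 1, 2 and 3 and 94, 37 and 50 without Ang II 1, 2 and 3. Why the tools differ was not tested. The fit with replicate number as a block called 0 in edgeR (1098 genes had an unadjusted p under 0.05) and 30 in DESeq2. The same-numbered libraries deviated in opposite directions (correlations of -0.70, -0.32 and -0.49), and pairs of other numbers ranged from -0.42 to 0.60. Deviations within groups of 3 depend on each other, so these values cannot settle whether the numbers pair the mice. The other scalings, quasi-likelihood fits and filters, the red-cell covariate and 1 fit over all 4 groups called 0. Tested as the interaction of Ang II and genotype, 1 gene passed in edgeR and 444 in DESeq2, the red-cell covariate left 0, and leaving out 1 library gave 0 to 919, the 919 without miR-214-/- Ang II 1 and no more than 3 without any other library. Over the 37 genes followed through every alternative, no value changed sign, 595 stayed on the reported side of the threshold and 255 passed a threshold that the reported value missed. These 37 were chosen for non-overlapping groups with a small p or for a DESeq2 call, which makes a change of sign unlikely. Their stability therefore does not extend to genes not chosen this way. Of the list medians, 37 alternative values in 13 lists moved by more than the spread between replicates. With 3 mice per group the median SE of a log2 fold change was 0.17, which limits the size of difference that could be detected.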

Other observations

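Some genes differed sharply from mouse to mouse within a group. By a rule chosen after seeing the data, 35 of 11687 genes with a library over 4 CPM had a gap of at least 8-fold between neighbouring libraries in the order of their levels, and in all 35 the gap fell within a group and in none between the groups. Rps3a3, a ribosomal protein pseudogene on chromosome 13, was at 222, 0.599 and 0.748 CPM in the sham libraries and 240.3, 388 and 257 CPM in the Ang II libraries. Magi1, a scaffold of cell junctions, was at 68.4, 0.922 and 0.962 CPM in the sham libraries and 1.27, 47.4 and 0.433 CPM in the Ang II libraries. Rab6b, a GTPase of Golgi transport, was at 54.6, 38.5 and 60.8 CPM without Ang II and 0.996, 40.8 and 1.60 CPM with it. Xkr6 was at 24.5, 54.6 and 46.7 CPM and at 37.0, 1.88 and 2.73 CPM. The mice were of a mixed background, and its part in these values was not tested.

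Chromosome 13 holds 3.40% of the genes tested and 9 of the 51 genes that DESeq2 called, 6 that rose and 3 that fell. BC147527, Vcan and Serpinb1a are among those that rose. This count was made after the calls were seen and has no test.

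The ribosomal protein genes as a whole varied between libraries, with a summed level of 88361, 68650 and 67625 CPM in the sham libraries and 74399, 113119 and 68902 CPM in the Ang II libraries. Ang II 2 was the highest library for these, for the globin and haem synthesis genes and for the neutrophil genes.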
